A study of Homarus americanus with 19 samples.

Results

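Hydrocarbon exposures of American lobster (Homarus americanus) larvae were set directly against each other, in 6 larvae kept in 1-methylnaphthalene and 7 larvae kept in heavy crude oil's water accommodated fraction (WAF) at 72%. These 13 larvae, taken by their treatment labels, are part of a series of 19 that also holds 6 control larvae in filtered seawater (0.22 µm). All larvae came from the same species and stage (day 9 in the labels, stage I in the study's methods), exposures lasted 24 h, and each whole larva gave 1 RNA-seq library. The methylnaphthalene dose in the labels is 0.3 mg/L, while a supplement of the study gives a slightly higher one. Only 1 dose of each agent was sequenced and the hydrocarbon content of the WAF is not given in the sources used here, so the agents are compared as applied and not at matched doses.

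Methylnaphthalene is a small polycyclic aromatic hydrocarbon and one of the more water-soluble constituents of crude oil, whereas a WAF is the mixture of oil constituents that passes into water after stirring. Animals clear such compounds by oxidation through cytochrome P450 enzymes, followed by conjugation to sugars, sulfate or glutathione and export. In decapods this takes place largely in the digestive gland (hepatopancreas), which also secretes digestive enzymes, stores lipid and sugar, and makes hemocyanin, the copper protein that carries oxygen in the hemolymph.

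Total counts ranged from 14295653 to 44466373 per larva in the table made with Kallisto on RefSeq transcripts and from 4580939 to 22681602 in the table made with Seq2Fun on crustacean ortholog groups. In the Kallisto table, the share of counts on noncoding transcripts (RefSeq accessions that begin with XR_) divided the WAF larvae. It was 35.7%, 33.2%, 33.9%, 32.2% and 34.2% in replicates 1 to 5, but 14.9% in replicate 6 and 18.3% in replicate 7. Methylnaphthalene larvae were divided as well, with 31.0%, 26.3% and 35.1% in replicates 1 to 3 and 16.3%, 15.2% and 16.5% in replicates 4 to 6. Control larvae ranged from 17.78% to 28.93%, so unexposed larvae also lay on both sides of the 20% share used below. WAF replicates 1 to 5 and methylnaphthalene replicates 1 and 3 were above every control larva. WAF replicate 6 and methylnaphthalene replicates 4 to 6 were below every control larva. The mean was 23.4% ± 8.58 (SD, n = 6) with methylnaphthalene and 28.9% ± 8.56 (SD, n = 7) with WAF, a difference that an exact permutation test over all 1716 splits did not separate from the spread (two-sided, p = 0.259; adjusted over 6 library measures, 0.484). A single long noncoding RNA, LOC121857831, made up 7.44% to 28.0% of the counts of a library in these 13 larvae. Without it the noncoding share was 9.87% ± 1.56 (SD, n = 6) and 10.1% ± 1.39 (SD, n = 7), so nearly all of the spread in the share lay in this gene. LOC121857831 itself did not pass the test between the exposures (log2 fold change −0.54 ± 0.46 SE, adjusted p = 0.573 with edgeR's quasi-likelihood test).

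Names of gene products were taken from supplementary sheets, 1 per table, that order features by their significance between methylnaphthalene and control larvae of these same libraries and are used here only in part. They name 1339 genes and 1225 ortholog groups, which were therefore chosen with the methylnaphthalene larvae and are no independent evidence of direction. A further 301 ortholog groups took their names from the study's sheets for other species. A differentially expressed gene (DEG) passed an adjusted p of 0.05 and differed by more than 1.5 on the log2 scale in edgeR's quasi-likelihood test, fitted on all 19 larvae. Values per larva are CPM, counts scaled to library size after TMM normalization. By these criteria, 205 of 18914 genes tested (1.08%) were DEGs, 200 higher (1.06%) and 5 lower with methylnaphthalene than with WAF, and 82 of 10974 ortholog groups (0.747%), all higher. At any fold, 3.64% of genes and 2.34% of ortholog groups passed the adjusted p. Among features with a product name, the share of DEGs was 9.4% of 1266 genes and 3.16% of 1394 ortholog groups, and the median log2 fold change was 0.95 and 0.26, against −0.01 and 0.01 over all features tested. The share of named features above 0 was not computed. Counts of list members above 0 given below therefore have no such share beside them and are no evidence about a list. Of the 205 genes, 12 were long noncoding RNAs and the others were protein-coding. In 81 of them, and in 33 of the 82 ortholog groups, the 6 methylnaphthalene larvae did not overlap the 7 WAF larvae. Over all features tested, the larvae did not overlap, with methylnaphthalene higher, in 1.2% of genes and 0.893% of ortholog groups.

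Of 41 digestive enzymes tested in the Kallisto table, 10 were DEGs, all of them higher with methylnaphthalene, beside 9.08% of all named genes that were called higher. The summed level of 46 named digestive enzymes (endoglucanases, trypsins, cysteine proteinases, lipases and others) was 1210, 1212, 1446, 1391, 1998 and 1239 CPM in methylnaphthalene replicates 1 to 6. It was 172, 216, 219, 294 and 183 CPM in WAF replicates 1 to 5, but 1296 and 818 CPM in WAF replicates 6 and 7, and 215 to 502 CPM in the control larvae. The WAF larvae with a high noncoding share were thus within or below the control range, the pair with a low noncoding share stood above it, and the methylnaphthalene larvae were all above the control range whether their noncoding share was high or low. These enzymes were named by their significance between methylnaphthalene and control larvae, so methylnaphthalene sums above the control range are no independent evidence. WAF replicate 6 lay within the methylnaphthalene range. In whole larvae, fewer cells of a type and less RNA per cell cannot be told apart.

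**Figure D1:**
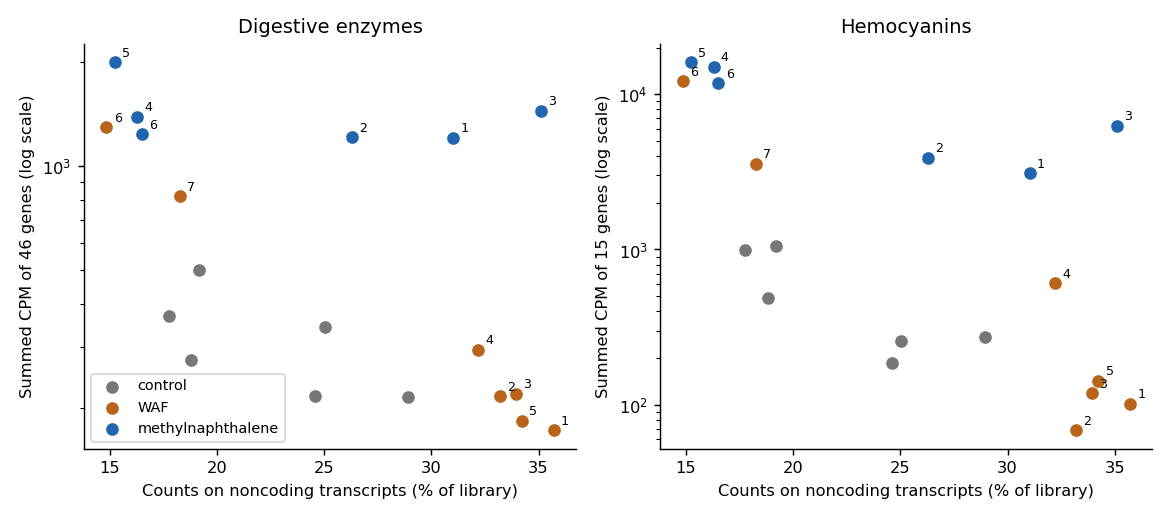
Summed level of the named digestive enzymes (left) and hemocyanins (right) in the Kallisto table, in CPM on a log axis, against the share of counts on noncoding transcripts in percent. Each point is a larva, with replicate numbers beside the exposed larvae. WAF replicates 1 to 5 lie at the lower right with over 32% noncoding counts, and WAF replicates 6 and 7 lie near the methylnaphthalene larvae.

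All 41 had a log2 fold change above 0, with a median of 1.64 beside 0.95 for all named genes. Of them 11 passed the adjusted p, beside 30.9% of named genes. With the noncoding share as a covariate 23 were called, beside 278 of the 1266 named genes, and with WAF replicate 6 left out 28, beside 36.6%. Among the 10 were a group of endoglucanases, enzymes that cut cellulose. Endoglucanase E-4-like LOC121872646 had a lowest, median and highest level of 2.63, 4.42 and 15.2 CPM with methylnaphthalene and 0.0936, 0.222 and 2.46 CPM with WAF. The groups did not overlap, and the highest WAF larva was replicate 6 (log2 fold change 3.08 ± 0.68 SE, adjusted p = 0.015). For LOC121865164, another gene of this type, methylnaphthalene larvae had 12.4 to 37.0 CPM and WAF larvae 1.59 to 13.2 CPM, so that only WAF replicate 6 reached the methylnaphthalene range (log2 fold change 2.08 ± 0.39 SE, adjusted p = 0.00519). LOC121865166 (log2 fold change 3.26, adjusted p = 0.00928) and LOC121878751 (3.26, adjusted p = 0.0184) rose as well, at low levels, with no more than 20 and 6 counts in any WAF larva.

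Digestive cysteine proteinase 3-like (LOC121856941), the most abundant of the list, was at 285, 360, 395, 515, 699.5 and 452 CPM in methylnaphthalene replicates 1 to 6. In WAF replicates 1 to 5 it was between 14.9 and 63.0 CPM, and in replicates 6 and 7 it was at 521 and 231 CPM. The log2 fold change of 1.81 ± 0.70 SE did not pass the test (adjusted p = 0.187), while it passed with the noncoding share as a covariate (adjusted p = 0.00441) and without WAF replicate 6 (adjusted p = 0.00481). In the Seq2Fun table, 2 of 12 groups of this list were DEGs (beside 3.16% of all named groups) and 11 were above 0, the trypsin-1-like group s2f_0000001134 (log2 fold change 1.88 ± 0.40 SE, adjusted p = 0.0149) and the pancreatic lipase-related protein 2-like group s2f_0000178026 (1.71 ± 0.44 SE, adjusted p = 0.0447), a call lost in 13 of 19 fits with 1 larva left out. The cathepsin L1-like group s2f_0000048026 rose by less than the fold threshold (log2 fold change 1.48 ± 0.31 SE, adjusted p = 0.014), from a WAF median of 441 CPM to a methylnaphthalene median of 1627 CPM. Lists were matched by words in the names, and this one also took in a trypsin inhibitor and a tubulin polyglutamylase, which are not digestive enzymes.

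Cytochrome P450 genes, which carry out the first oxidation of aromatic compounds, rose in part. Of 27 tested, 4 passed the adjusted p and 3 of them were DEGs, a share near that of all named genes, and 25 were above 0 with a median log2 fold change of 1.58. The lowest member was at −5.58, and 0 passed downward. For cytochrome P450 3A6-like (LOC121878761) the lowest, median and highest levels were 2.93, 3.70 and 6.15 CPM with methylnaphthalene. WAF larvae had 0.702, 0.842 and 2.37 CPM, with replicates 6 and 7 highest. The groups did not overlap (log2 fold change 1.60 ± 0.32 SE, adjusted p = 0.00865). In cytochrome P450 6j1-like (LOC121863787), methylnaphthalene larvae had 14.9 to 27.0 CPM, WAF replicate 6 had 17.5 CPM and the other WAF larvae had at most 6.17 CPM (1.58 ± 0.36 SE, adjusted p = 0.0173). Cytochrome P450 3A31-like (LOC121868234) was the third (2.38 ± 0.57 SE, adjusted p = 0.0243), a call lost in 5 of 19 fits with 1 larva left out. The fourth, cytochrome P450 4C1-like (LOC121858720), rose by a log2 fold change of 1.32 ± 0.30 SE (adjusted p = 0.019). Probable cytochrome P450 49a1 (LOC121878864), the most abundant member, had a log2 fold change of 0.39 ± 0.13 SE and did not pass (adjusted p = 0.109). With the noncoding share as a covariate 10 of the 27 were DEGs, beside 278 of the 1266 named genes. Without WAF replicate 6 it was 15, beside 36.6% of named genes. Against the shared control larvae the list was mixed, with 15 called higher and 4 lower with methylnaphthalene, and 0 higher and 2 lower with WAF. The names were chosen with methylnaphthalene and control larvae, and shares of named genes were not computed there, so these counts are no independent evidence.

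In the Seq2Fun table no named P450 group was a DEG. The cytochrome P450 2L1-like group s2f_0000004090 was at 221 to 474 CPM with methylnaphthalene and 83.8 to 142 CPM in WAF replicates 1 to 5, with 339 and 206 CPM in replicates 6 and 7. It rose by a log2 fold change of 1.28 ± 0.28 SE (adjusted p = 0.0191). It was the only one of 5 groups tested under the same base number, s2f_0000004, that passed. The group named aryl hydrocarbon receptor nuclear translocator-like protein 1, s2f_0000682009, known in vertebrates as a transcription factor of the circadian clock, fell. Its lowest, median and highest levels were 1.31, 1.92 and 2.45 CPM with methylnaphthalene and 1.87, 3.92 and 5.16 CPM with WAF. The groups overlapped only through WAF replicate 7 (log2 fold change −1.01 ± 0.24 SE, adjusted p = 0.0258).

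Enzymes of the second step, conjugation, mostly moved by less than the fold threshold. Of 35 tested (UDP-glycosyltransferases, sulfotransferases and glutathione S-transferases), 14 passed the adjusted p upward and 1 downward, and 4 were DEGs. Among all named genes, 30.9% passed at any fold and 9.08% were DEGs called higher. By name the list also holds sulfotransferases of carbohydrates and a sugar epimerase, which do not conjugate foreign compounds. The most abundant, UDP-glucosyltransferase 2-like (LOC121856452), had a lowest, median and highest level of 123, 136 and 207.5 CPM with methylnaphthalene. WAF larvae had 6.61, 16.9 and 102.8 CPM, below every methylnaphthalene larva (log2 fold change 1.96 ± 0.48 SE, adjusted p = 0.0285). The call of LOC121856452 was lost in 6 of 19 fits with 1 larva left out. It was also lost in edgeR's test without TMM (adjusted p = 0.0977) and with only the exposed larvae (0.105). Sulfotransferase 1A1-like (LOC121856847) did not overlap either, at a smaller distance, with 69.7 to 96.1 CPM and 39.8 to 61.6 CPM (0.69 ± 0.10 SE, adjusted p = 0.000568). UDP-glycosyltransferase UGT5-like (LOC121873672) rose by 1.28 ± 0.24 SE (adjusted p = 0.00545). Among hydrolases, epoxide hydrolase 4-like (LOC121877365), of the enzymes that open epoxides made by P450s, was a DEG at the edge of the fold threshold (0.27 SE, adjusted p = 0.00432). Its call was lost in 8 of 19 fits with 1 larva left out. The venom carboxylesterase-6-like group s2f_0000027007 was at 403 to 732 CPM with methylnaphthalene and 179 to 362 CPM with WAF (1.29 ± 0.18 SE, adjusted p = 0.00059).

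**Figure D2:**
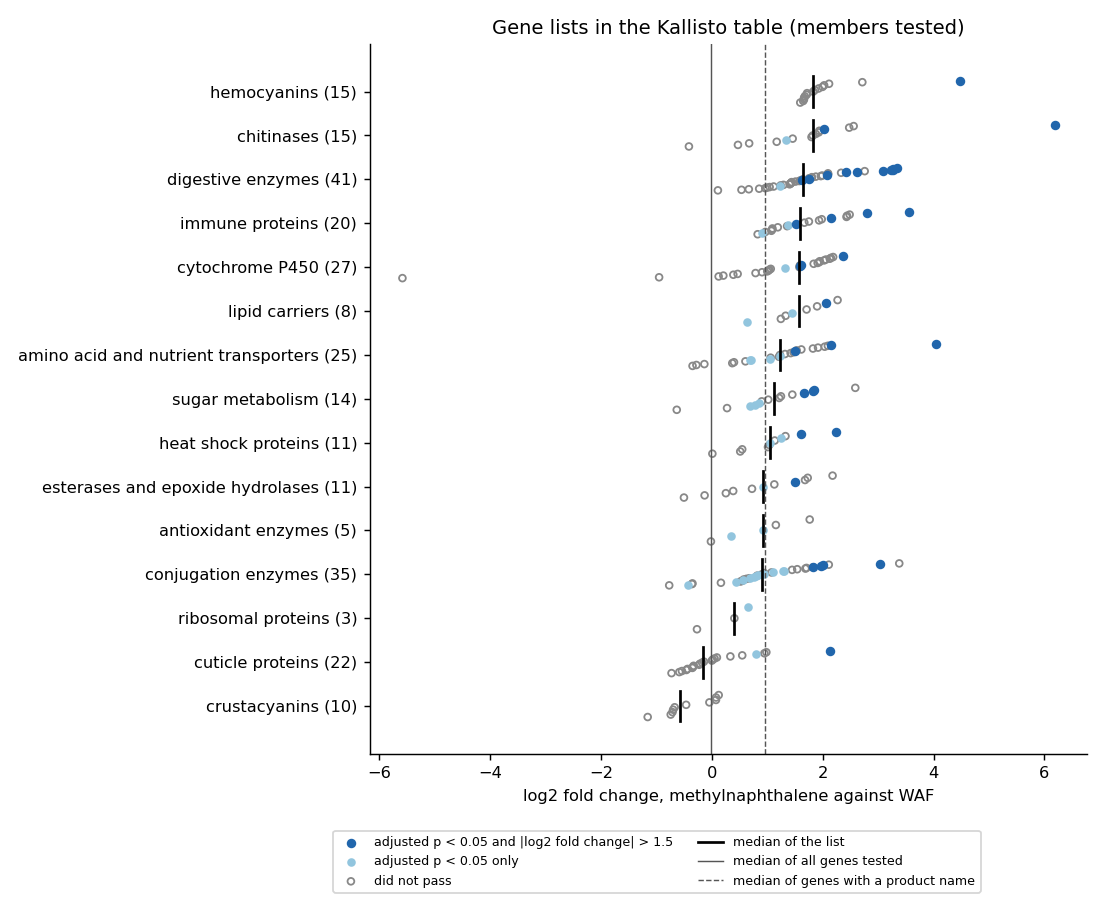
Log2 fold change of methylnaphthalene against WAF larvae for each tested member of 15 gene lists in the Kallisto table, with the number tested in brackets. Dark points are DEGs, light points passed the adjusted p only, open points did not pass, black bars are list medians, and the vertical lines are the medians of all genes tested (−0.01, solid) and of named genes (0.95, dashed). The medians of digestive enzymes (1.64), chitinases (1.82), hemocyanins (1.83), P450s (1.58), immune proteins (1.59) and lipid carriers (1.58) lie to the right of both lines, and crustacyanins and cuticle proteins have medians below 0.

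Of 14 genes of sugar metabolism 6 rose and 3 were DEGs, beside 30.9% and 9.08% of all named genes. Glucose-6-phosphatase catalytic subunit 1-like (LOC121862852), which releases free glucose, was at 70.5 to 109.5 CPM in methylnaphthalene larvae and at 8.24 to 54.1 CPM in WAF larvae without overlap (log2 fold change 1.85 ± 0.36 SE, adjusted p = 0.00696). The glucose-6-phosphatase 2-like group s2f_0003177004 rose by 1.54 ± 0.23 SE (adjusted p = 0.00131), a call lost in 5 of 19 fits with 1 larva left out. The glucose-6-phosphate exchanger SLC37A4-like LOC121876886 (1.83 ± 0.42 SE, adjusted p = 0.018) and the trehalose transporter Tret1-like LOC121874582 (1.66 ± 0.39 SE, adjusted p = 0.0205) were the other DEGs. Phosphoenolpyruvate carboxykinase (LOC121879007), the committed enzyme of glucose synthesis, was abundant in both groups and rose by 0.70 ± 0.15 SE (adjusted p = 0.011). Trehalose is the blood sugar of many arthropods, and its synthase group s2f_0000779006 rose by 0.86 ± 0.21 SE (adjusted p = 0.0325). Control larvae were below both exposed groups there, at 222 to 423 CPM, and WAF larvae were at 557 to 913 CPM (WAF against control, 1.14, adjusted p = 0.0192).

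Of 8 lipid carriers tested 3 rose and 1 was a DEG, shares near those of all named genes. Fatty acid-binding protein, liver-like (LOC121854312), which binds fatty acids inside cells, had a lowest, median and highest level of 88.2, 99.9 and 154 CPM with methylnaphthalene. With WAF it had 3.86, 11.4 and 77.4 CPM, and replicates 6 and 7 were the highest (log2 fold change 2.07 ± 0.54 SE, adjusted p = 0.0395), and the call was lost in 13 of 19 fits with 1 larva left out. The group of the same name, s2f_0003506004, rose by 2.32 ± 0.57 SE (adjusted p = 0.0358, a call lost in 9 of 19 such fits). Apolipophorins carry lipid in the hemolymph. The apolipophorins-like gene LOC121862442 rose by 1.45 ± 0.31 SE (adjusted p = 0.0114). The much more abundant group s2f_0001908003 spanned 6495 to 24580 CPM with methylnaphthalene, 173 to 1244 CPM in WAF replicates 1 to 5, and 18750 and 6107 CPM in WAF replicates 6 and 7. Its log2 fold change of 2.07 ± 0.92 SE did not pass (adjusted p = 0.32). With the noncoding share as a covariate it was 3.05 (adjusted p = 0.0036).

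Of 25 named carriers of amino acids and other nutrients 7 rose and 3 were DEGs, shares near those of all named genes (30.9% and 9.08%). LOC121874308, named as a nutrient amino acid transporter driven by sodium, was at 114.7 to 180.3 CPM with methylnaphthalene and at 3.05 to 22.3 CPM with WAF (log2 fold change 4.04 ± 0.42 SE, adjusted p = 6.3e-05). The ortholog group of that family s2f_0000062040 was at 389, 336, 377, 344, 298 and 318 CPM with methylnaphthalene. It was at 104.7, 97.5, 121 and 126.5 CPM in WAF replicates 1 to 4, within that range in replicate 5, and at 78.1 and 65.5 CPM in replicates 6 and 7. Here WAF replicates 6 and 7 were the lowest of their group and not the highest (1.77 ± 0.24 SE, adjusted p = 0.00059). Within the larvae under 20% noncoding share, this group was 1 of 3 ortholog groups that still passed (2.14, adjusted p = 0.0235). The others were the D-ets-6-like group described with the transcription factors and, picked after its values were seen, the kinase sgk3 group s2f_0000012002 (1.66, adjusted p = 0.0235). Sodium-coupled monocarboxylate transporter 1-like (LOC121878160), a carrier of lactate and short fatty acids in vertebrates, did not overlap, with 33.9 to 72.4 CPM and 10.5 to 24.7 CPM (1.51 ± 0.20 SE, adjusted p = 0.000489). Its fold was at the edge of the threshold, and the call was lost in 7 of 19 fits with 1 larva left out. In the Seq2Fun table the cationic amino acid transporter 2-like group s2f_0000253001 was a further DEG (1.98 ± 0.50 SE, adjusted p = 0.0385). Its call was lost in 8 of 19 fits with 1 larva left out.

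Some of the leading features named by the rule are protein kinases. The serine/threonine kinase meng-po-like (LOC121872643) was at 17.0, 33.0, 2.48, 60.8, 58.8 and 24.5 CPM with methylnaphthalene, and at 0.310 to 1.10 CPM with WAF. Replicate 3 was far below the other methylnaphthalene larvae and still above every WAF larva (log2 fold change 5.55 ± 0.57 SE, adjusted p = 5.7e-05). Kinase SBK1-like genes LOC121872644 (3.07 ± 0.40 SE, adjusted p = 0.000389) and LOC121872645 (3.98 ± 0.55 SE, adjusted p = 0.000496) followed the same order of larvae, with methylnaphthalene replicate 3 lowest at 7.59 and 2.13 CPM. By their order and positions in the annotation table, which names no scaffold, LOC121872643 and LOC121872645 lie inside the span of LOC121872644. The strand of the counting is not given in the sources used here, so reads of these 3 genes may not be independent. The ortholog group meng-po, s2f_0002182005, rose by 2.76 ± 0.35 SE (adjusted p = 0.000405). Tyrosine-protein kinase SRK2-like (LOC121877055) was at 8.10 to 14.5 CPM against 1.58 to 6.50 CPM, with replicate 3 highest in the methylnaphthalene group (1.90 ± 0.27 SE, adjusted p = 0.000577).

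Transcription factors were also among the leading features, among them a relative of the immediate-early factor Fos. The group named transcription factor kayak, the insect Fos, had a lowest, median and highest level of 24.9, 42.5 and 63.5 CPM with methylnaphthalene and of 10.6, 12.3 and 24.9 CPM with WAF (s2f_0001844001). The groups met at WAF replicate 6 and methylnaphthalene replicate 3 without overlapping (log2 fold change 1.52 ± 0.21 SE, adjusted p = 0.00059). The D-ets-6-like group s2f_0001894006 was at 11.6 to 41.6 CPM and 3.98 to 7.77 CPM (2.17 ± 0.27 SE, adjusted p = 0.000341). It also passed within the larvae under 20% noncoding share (2.16, adjusted p = 0.033). Early growth response protein 1-like (LOC121853319) was not among them and was picked after its values were seen. It was at 32.6 to 95.7 CPM against 15.9 to 38.5 CPM, overlapping only through methylnaphthalene replicate 3 (1.53 ± 0.23 SE, adjusted p = 0.00103). The calls of this gene and of kayak were each lost in 6 of 19 fits with 1 larva left out. Hepatocyte nuclear factor 4-gamma-like, a nuclear receptor of liver and gut in vertebrates, rose in both tables by less than the fold threshold (LOC121874203, 1.22 ± 0.21 SE, adjusted p = 0.00226, and s2f_0000239018, 1.25 ± 0.20 SE, adjusted p = 0.00198).

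**Figure D3:**
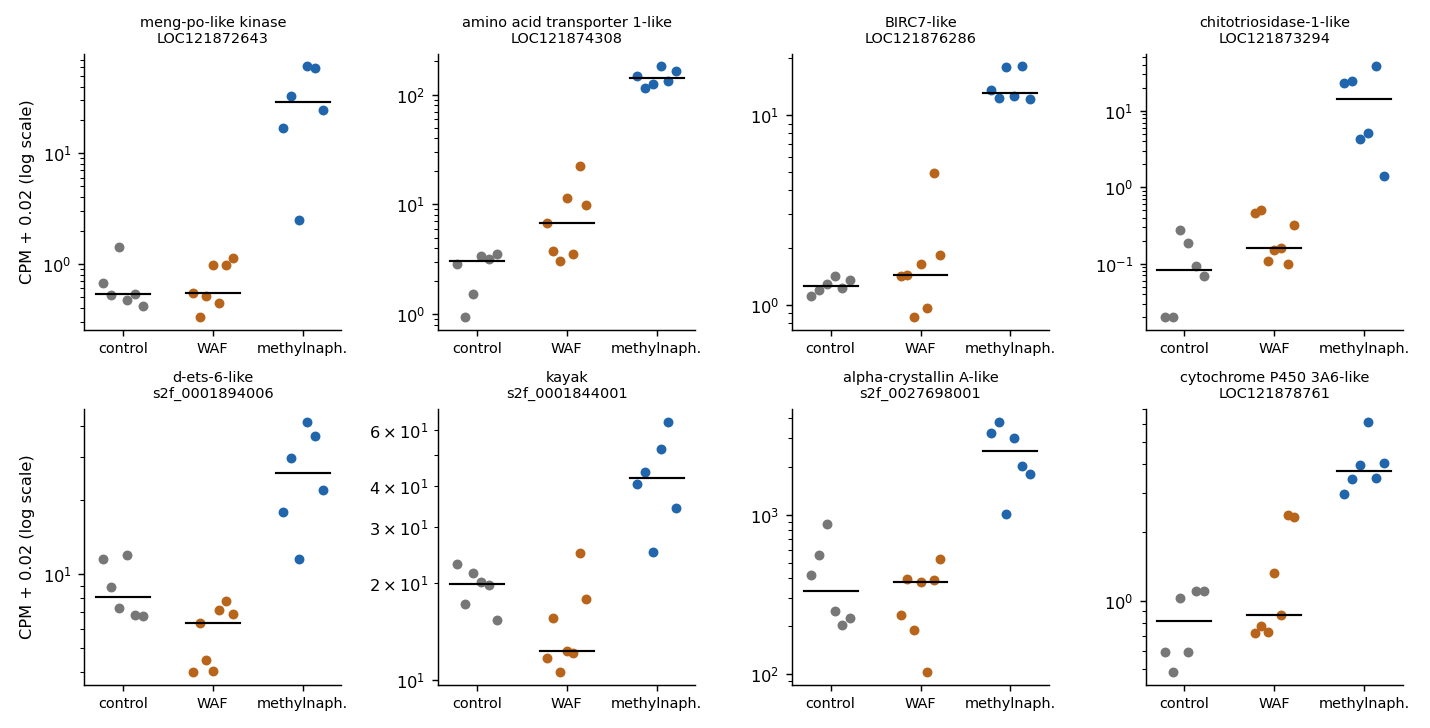
Level of 8 features in each larva, in CPM plus 0.02 on a log axis, for control (grey, n = 6), WAF (orange, n = 7) and methylnaphthalene larvae (blue, n = 6), with the median of each group as a bar. All methylnaphthalene points lie above all WAF points in each panel, and WAF replicate 6 is the highest WAF larva in the panels of the amino acid transporter (22.3 CPM), BIRC7-like (4.92 CPM) and kayak (24.9 CPM).

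Immune and chitin-degrading proteins showed both kinds of spread. Chitinases cut chitin in food, cuticle and gut lining, and 2 of 15 were DEGs, a share near that of all named genes. Chitotriosidase-1-like (LOC121873294) had a lowest and median level of 1.40 and 14.2 CPM with methylnaphthalene and was at 0.0776 to 0.488 CPM with WAF, where no larva had over 11 counts. The gap between groups was wide (log2 fold change 6.19 ± 0.77 SE, adjusted p = 0.000288), and WAF replicate 6 was the lowest of its group. Acidic mammalian chitinase-like (LOC121860928) followed the digestive enzymes instead, with 9.25 and 7.86 CPM in WAF replicates 6 and 7 and at most 2.10 CPM in the other WAF larvae (2.03 ± 0.54 SE, adjusted p = 0.0409, a call lost in 14 of 19 fits with 1 larva left out). The abundant endochitinase-like gene LOC121855516 had medians of 1051 and 25.8 CPM and did not pass (2.56 ± 0.81 SE, adjusted p = 0.0939). It passed with the noncoding share as a covariate (3.26, adjusted p = 0.00254), without WAF replicate 6 (3.45, adjusted p = 0.00724) and with DESeq2 (adjusted p = 0.0285).

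Of 20 named immune genes 6 rose and 4 were DEGs, beside 30.9% and 9.08% of all named genes. Anti-lipopolysaccharide factors are antibacterial peptides of crustaceans. LOC121860186 was at 21.5, 167, 10.0, 124.4, 254 and 69.2 CPM with methylnaphthalene and at 4.74 to 15.6 CPM with WAF, so the groups overlapped through methylnaphthalene replicate 3 (3.55 ± 0.72 SE, adjusted p = 0.00897). Its neighbour LOC121860188 rose by 1.52 ± 0.32 SE (adjusted p = 0.0117), a call lost in 5 of 19 fits with 1 larva left out. The macrophage mannose receptor 1-like genes LOC121870184 (2.80 ± 0.65 SE, adjusted p = 0.0201) and LOC121867262 (2.16 ± 0.56 SE, adjusted p = 0.0361) bind sugars as lectins and were the other DEGs. The call of LOC121867262 was lost in 8 of 19 fits with 1 larva left out. Baculoviral IAP repeat-containing protein 7-like (LOC121876286), of a family that inhibits cell death, was at 12.19 to 18.02 CPM with methylnaphthalene. WAF replicate 6 had 4.92 CPM and the other WAF larvae at most 1.82 CPM (2.92 ± 0.31 SE, adjusted p = 7.13e-05).

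Hemocyanins had the widest range between larvae. The summed level of 15 genes was 3095 to 16040 CPM with methylnaphthalene, 68.4 to 609 CPM in WAF replicates 1 to 5, and 12100 and 3573 CPM in WAF replicates 6 and 7. Control larvae had 186 to 1059 CPM, but the names were chosen with methylnaphthalene and control larvae, so that distance is no independent evidence. All 15 were above 0 with a median log2 fold change of 1.83, yet 1 passed the test, hemocyanin A chain-like LOC121877419 (4.48 ± 0.99 SE, adjusted p = 0.0151), which had 11 counts over all 7 WAF larvae. The most abundant, hemocyanin C chain-like LOC121880057, had medians of 4364 and 57.5 CPM and a log2 fold change of 2.12 ± 0.99 SE (adjusted p = 0.291). With the noncoding share as a covariate it rose by 3.13 (adjusted p = 0.00461), and 9 of the 15 were DEGs, beside 278 of the 1266 named genes. Reads of such gene families can be divided between near-identical copies, so counts of single members are uncertain.

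Of 11 heat shock and related stress proteins in the Kallisto table, 4 rose with methylnaphthalene and 2 were DEGs, beside 30.9% and 9.08% of all named genes, with a median log2 fold change of 1.05. In the Seq2Fun table none of 7 groups of this list passed, 4 were above 0 and the median was 0.19. Heat shock protein 22-like (LOC121875504), a small chaperone, was at 34.9 to 147 CPM with methylnaphthalene and at 19.9 to 33.0 CPM with WAF (log2 fold change 1.62 ± 0.36 SE, adjusted p = 0.015). By order and positions its span overlaps other annotated genes. A heat shock 70 kDa protein cognate 4-like gene, LOC121870243, was the other (2.24 ± 0.56 SE, adjusted p = 0.0312, a call lost in 8 of 19 fits with 1 larva left out). Methylnaphthalene replicate 3, at 0.759 CPM, was below every WAF larva there. The gene beside it, LOC121870242, rose by 1.25 ± 0.31 SE (adjusted p = 0.0302), and heat shock protein 67B1-like (LOC121866438) by 1.05 ± 0.18 SE (adjusted p = 0.00328). Against the shared control larvae 4 of the 11 were called lower in each exposed group, beside 0.169% of all genes with methylnaphthalene and 0.106% with WAF. Genes were named by their significance between methylnaphthalene and control larvae, so these shares over all genes are no like measure for a named list. The shares of named genes were not computed for these comparisons. Outside the list, the alpha-crystallin A chain-like group s2f_0027698001, named after a small chaperone of the lens, was at 3241, 3822, 1006, 3010, 2026 and 1798 CPM with methylnaphthalene. In WAF larvae it was at 102.7 to 529.7 CPM (2.97 ± 0.42 SE, adjusted p = 0.00059). Among antioxidant enzymes, which remove peroxides and superoxide, peroxiredoxin-like 2A (LOC121873740) rose without overlap (0.93 ± 0.12 SE, adjusted p = 0.000451) and peroxiredoxin-6-like (LOC121866244) by 0.34 ± 0.08 SE (adjusted p = 0.019).

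Several leading features have no product name or an uninformative one. LOC121868060 was at 9.39 to 41.4 CPM with methylnaphthalene and at 0.310 to 1.90 CPM with WAF (log2 fold change 4.80 ± 0.65 SE, adjusted p = 0.000472). LOC121878438 was at 17.2 to 84.8 and 1.17 to 11.5 CPM (3.25 ± 0.45 SE, adjusted p = 0.000496), and LOC121855124 at 27.6 to 68.6 and 7.20 to 15.4 CPM (1.99 ± 0.24 SE, adjusted p = 0.000288). The ankyrin-1-like group s2f_0017403001 rose by 1.89 ± 0.30 SE (adjusted p = 0.00171). The serine/arginine repetitive matrix protein 1-like group s2f_0144728001 was at 2.64 to 4.67 CPM with methylnaphthalene and had at most 18 counts in a WAF larva (3.57 ± 0.50 SE, adjusted p = 0.000593).

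For a few features the WAF larvae, rather than the methylnaphthalene larvae, stood away from the control larvae. The neighbouring long noncoding RNAs LOC121863977 and LOC121863978 were chosen after their values were seen. LOC121863977 was at 41.1 to 144 CPM in control larvae, 27.5 to 106 CPM with methylnaphthalene and 2.48 to 16.8 CPM with WAF. LOC121863978 was at 39.3 to 140 CPM, 16.5 to 83.4 CPM and 0.468 to 8.78 CPM in the same order. In both, WAF replicate 6 was the highest WAF larva and remained below every methylnaphthalene larva (log2 fold change 3.01 ± 0.46 SE, adjusted p = 0.00103, and 3.56 ± 0.59 SE, adjusted p = 0.00194). Against the same control larvae, LOC121863977 changed by −0.76 with methylnaphthalene (adjusted p = 0.411) and by −3.77 with WAF (adjusted p = 0.000409). LOC121863978 changed by −1.63 (adjusted p = 0.0884) and by −5.19 (adjusted p = 0.000288). The unnamed coding gene LOC121875506 lay on either side of the controls, with a median of 6.86 CPM in control larvae, 25.04 CPM with methylnaphthalene and 1.42 CPM with WAF (methylnaphthalene against WAF, 3.57 ± 0.49 SE, adjusted p = 0.000494).

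**Figure D4:**
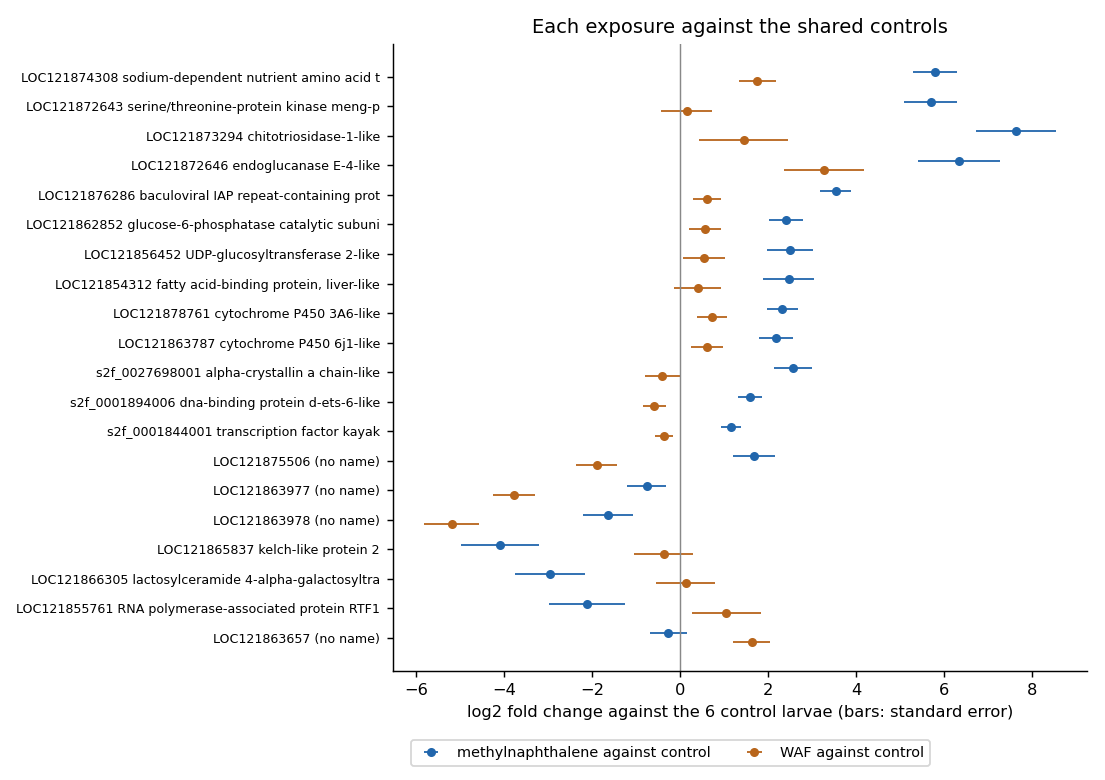
Log2 fold change of each exposure against the 6 control larvae, which both comparisons share, for 20 features described in the text. Points are estimates and bars are standard errors. The amino acid transporter LOC121874308 is at 5.80 with methylnaphthalene and 1.75 with WAF, while LOC121863977 is at −3.77 with WAF and −0.76 with methylnaphthalene.

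Only 5 genes were lower with methylnaphthalene (0.0264% of those tested). Among them were a pair named kelch-like protein 2, a substrate adaptor of ubiquitin ligases. LOC121865837 had at most 4 counts in a methylnaphthalene larva and up to 26 in a WAF larva, although WAF replicate 6 had 0 CPM (log2 fold change −3.72 ± 0.88 SE, adjusted p = 0.0221). Its call was lost in 4 of 19 fits with 1 larva left out. LOC121853266 had 2 counts in all over the methylnaphthalene larvae and 35 over the WAF larvae (adjusted p = 0.0434), too few for a fold. When each larva was left out in turn, the call ended in 15 of 19 fits (highest adjusted p, 0.122), and it ended with limma (adjusted p = 0.0795), without TMM (0.066) and with no filter (0.0532). Lactosylceramide 4-alpha-galactosyltransferase-like (LOC121866305), a glycolipid enzyme, was at 0 to 0.419 CPM with methylnaphthalene and 0.211 to 2.60 CPM with WAF (−3.09 ± 0.79 SE, adjusted p = 0.0337). Its call was lost in 9 of 19 fits with 1 larva left out, and by order and positions its span overlaps other annotated genes. RNA polymerase-associated protein RTF1 homolog (LOC121855761) was at 0 to 1.82 CPM and 1.84 to 14.7 CPM, without overlap (−3.16 ± 0.87 SE, adjusted p = 0.0494). It no longer passed with the noncoding share as a covariate (−2.27, adjusted p = 0.13) or in 15 of 19 fits with 1 larva left out. The unnamed LOC121863657 fell from a WAF median of 17.4 CPM to 4.83 CPM, with WAF replicate 6 at 3.18 CPM inside the methylnaphthalene range (−1.89 ± 0.42 SE, adjusted p = 0.0148).

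None of 10 crustacyanins (carotenoid-binding shell pigment proteins) passed, with a median log2 fold change of −0.57 and −1.16 ± 0.50 SE (adjusted p = 0.244) for crustacyanin-A2 subunit-like LOC121869696, the most abundant. Of 22 cuticle proteins 2 rose and 1 was a DEG, beside 30.9% and 9.08% of all named genes, and 10 were above 0. The DEG was pro-resilin-like LOC121869722, of the elastic cuticle protein (2.13 ± 0.50 SE, adjusted p = 0.0221). The group named pro-resilin, s2f_0007006003, rose by 1.97 ± 0.44 SE (adjusted p = 0.0183). Neither muscle gene passed. The summed level of muscle genes was 2541 to 4162 CPM with methylnaphthalene and 2552 to 4223 CPM with WAF, almost all of it troponin I (LOC121866781, −0.13 ± 0.16 SE, adjusted p = 0.705). Of 3 genes with ribosomal protein in the name, mitochondrial 28S S26 (LOC121878874) rose by 0.65 ± 0.09 SE (adjusted p = 0.000472), while 60S L12-like (LOC121855993) had −0.27 ± 0.14 SE (adjusted p = 0.337). The 3 genes listed for the nervous system were a pair of acetylcholine receptors and extended synaptotagmin-3-like. They were matched by words in their names and need not mark nervous tissue. They summed to 37.9 to 64.7 CPM with methylnaphthalene and 8.08 to 43.7 CPM with WAF. WAF replicates 6 and 7 were the highest WAF larvae, and the median log2 fold change was 1.54. In the Seq2Fun table none of 3 nervous system groups passed (median −0.07). The probable muscarinic acetylcholine receptor gar-1 (LOC121860424) was a DEG (1.54 ± 0.31 SE, adjusted p = 0.00799), a call lost in 5 of 19 fits with 1 larva left out. The alpha-7-like subunit LOC121873421 did not pass (1.41 ± 0.41 SE, adjusted p = 0.0662, and 0.00757 with the noncoding share as a covariate).

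Markers of hemocytes, the blood cells, and of the digestive gland varied within both groups. The 3 hemocyte genes summed to 103.7 to 373 CPM with methylnaphthalene and 20.2 to 50.9 CPM in WAF replicates 1 to 5, with 266 and 79.8 CPM in replicates 6 and 7, and none was at 0 in a whole group. The largest range was in the hemolymph clottable protein-like gene LOC121853895, at 6.99 to 226 CPM and 0.0442 to 186 CPM (1.57 ± 1.31 SE, adjusted p = 0.57). With the noncoding share as a covariate its adjusted p was 0.0422. By its name this is a protein of the hemolymph and need not mark blood cells, and it gave 186 of the 266 CPM in WAF replicate 6. The 2 hemocyte groups of the Seq2Fun table had another order of larvae, with 2422 to 4913 CPM with methylnaphthalene, 2216 to 2980 CPM in WAF replicates 1 to 5, and 1907 and 1706 CPM in replicates 6 and 7, the lowest of their group. The 57 digestive gland markers, which include the digestive enzymes above, summed to 1296 to 2127 CPM with methylnaphthalene and 224 to 1407 CPM with WAF, and 1 was at 0 in all methylnaphthalene larvae. All 51 tested were above 0 and 10 were DEGs, beside 9.08% of all named genes that were called higher. In the Kallisto table WAF replicates 6 and 7 were the highest WAF larvae for both lists, as for the digestive enzymes and hemocyanins, and the part of these cell types in the single results was not tested.

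The number of features that passed changed, for causes not tested, when the fit took account of the noncoding share. With it as a covariate, 452 genes were DEGs (447 higher, 2.36% of those tested), 183 of the 205 among them, and 170 ortholog groups (1.55%), 72 of the 82 among them. Every one of the 205 genes and of the 82 groups kept its direction. In a further step, chosen after the data were seen, larvae were compared within each side of a 20% noncoding share. Above it, methylnaphthalene replicates 1 to 3 against WAF replicates 1 to 5 gave 653 genes and 258 ortholog groups, with a median log2 fold change of 2.72 for the 200 higher genes. Below it, methylnaphthalene replicates 4 to 6 against WAF replicates 6 and 7 gave 0 genes with edgeR (1528 at an unadjusted p below 0.05) and 3 ortholog groups, with a median of 1.17. These DEGs were called on all larvae, those compared here included. The difference between both sides was not tested, and the smaller side has fewer larvae. WAF replicate 6, which has the most counts and the lowest noncoding share of its group, was the highest WAF larva in 146 of the 200 higher genes and in 61 of the 82 groups. Without it, 786 genes and 330 groups were called (higher, 4.08% and 3.01%).

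**Figure D5:**
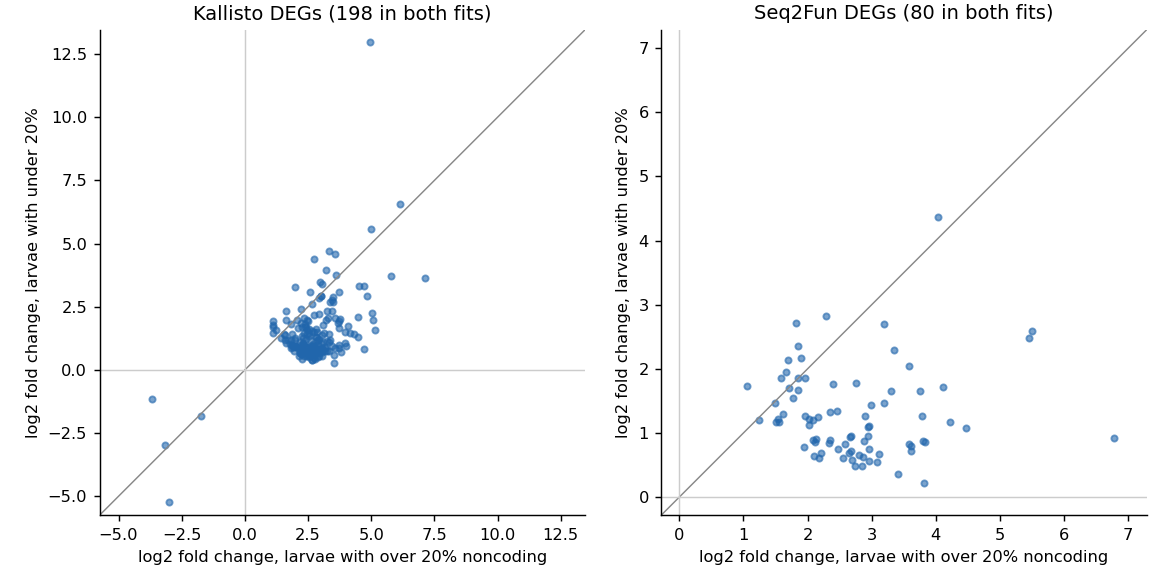
Log2 fold change of methylnaphthalene against WAF for the DEGs of each table, in larvae with over 20% noncoding counts (horizontal axis, 3 against 5 larvae) and with under 20% (vertical axis, 3 against 2 larvae). Each point is a DEG that could be tested in both, and the diagonal marks equal change. The DEGs were called on all larvae, those plotted included. The medians of the higher Kallisto genes are 2.72 and 1.17.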

How the data were processed

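Each whole larva gave 1 library, and the labels' sample names linked every table column to a larva (0 columns were left over). The authors deposited Kallisto's expected counts (RefSeq transcripts, GMGI_Hamer_2.0) and, in another table, raw counts for Seq2Fun ortholog groups, neither of them normalized. Estimated counts of 46006 transcripts were added up within 25667 genes, then rounded. Features with fewer than 4 counts in total and the 15% with the smallest interquartile range were removed. The quasi-likelihood test of edgeR 4.0.16 (R 4.3.3), with TMM and Benjamini-Hochberg adjustment, was fitted on all 19 larvae without covariates. DEGs passed an adjusted p of 0.05 and differed by more than 1.5 on the log2 scale. Shares of counts were compared by enumerating all splits of the larvae. On data simulated from the means and library sizes of each table, 191 of 200 changed genes and 186 of 200 changed ortholog groups were recovered, with 3 and 0 false calls. All planted changes were larger than the fold threshold and lay in features with a mean above 1 CPM. Features were drawn independently, without a division of the larvae by noncoding share. The simulation thus does not measure recovery or false calls for rarer features or for larvae divided as here.

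Alternatives were limma 3.58.1, edgeR's likelihood ratio test, DESeq2 1.42.0, library sizes without TMM, the robust fit, no filter, filterByExpr, no fold threshold, only both exposed groups, protein-coding rows, the replicate block, the noncoding share as a covariate and each larva left out. The fits within noncoding classes, and the covariate without WAF replicate 6, were chosen after the data were seen. The features, lists and rules were chosen with earlier results of these data known. Named features were, per table, the 12 higher and 5 lower DEGs with the smallest adjusted p, the 4 members of each list with the smallest p and its most abundant member; the exceptions are said in the text. Coordinates are not printed because scaffolds are unnamed in the annotation used here. Nothing states whether larvae shared a tank or batch, so p-values measure the spread between these larvae. Counting error covers reads without molecular identifiers, at totals of 14295653 to 44466373 and 4580939 to 22681602 counts per larva.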

Additional observations from a re-analysis of the deposited data

Results flagged for a closer look

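The counts of DEGs between the exposures, 205 genes and 82 ortholog groups, are differences between groups of larvae by edgeR's test. Single larvae that stood far from the rest of their group, by Dixon's ratio at the 95% level, were found in 28 of 170 groups of values tested for the features of the text. Chance gives about 1 in 20, and features that move together are not independent.

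WAF replicate 6 accounted for 17 of the 28, each time as the highest larva of its group. Among enzymes and transporters it had 521.4 CPM of digestive cysteine proteinase LOC121856941, 135.2 CPM of cytochrome P450 LOC121858720, 17.53 CPM of LOC121863787, 1.125 CPM of LOC121868234, 33.47 CPM of LOC121873672, 22.3 CPM of LOC121874308, 13.63 CPM of LOC121874582 and 362.1 CPM of s2f_0000027007. Among hemolymph and immune proteins it had 186.1 CPM of LOC121853895, 0.6398 CPM of LOC121870184, 0.1939 CPM of LOC121877419, 4938 CPM of LOC121880057 and 18750 CPM of s2f_0001908003. It also had 8.783 CPM of LOC121863978, 5.08 CPM of LOC121875506, 4.925 CPM of LOC121876286 and 6.495 CPM of LOC121877055.

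Methylnaphthalene replicate 3 stood apart in 6 features, with 0.1012 CPM of LOC121853266, 207.5 CPM of LOC121856452, 109.5 CPM of LOC121862852, 4.96 CPM of LOC121868234, 307 CPM of s2f_0003177004 and 263.3 CPM of s2f_0003506004. Methylnaphthalene replicate 5 had 81.37 CPM of LOC121860188 and 519.1 CPM of LOC121869696, replicate 2 had 106.3 CPM of LOC121863977 and 83.37 CPM of LOC121863978, and replicate 4 had 6.154 CPM of LOC121878761.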

How the results depend on the processing

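The count of DEGs, 205 genes and 82 ortholog groups, depended on the test and the larvae. It was 556 and 221 with limma, 352 and 137 with DESeq2, 340 and 142 with the likelihood ratio test, 101 and 28 without TMM, 76 and 31 with only the exposed larvae, and 688 and 257 with no fold threshold. With the noncoding share as a covariate it was 452 and 170, with that covariate and without WAF replicate 6 it was 603 and 246, above a 20% share 653 and 258, and below it 0 and 3. With 1 larva left out, counts ranged from 106 (without WAF replicate 3) to 786 (without WAF replicate 6) and from 34 (without WAF replicate 5) to 330 (without WAF replicate 6), and 77 genes and 30 groups were called in all of these fits. The cause of these shifts was not tested. The robust fit, no filter and filterByExpr stayed within 1.5 times of both counts. The difference in noncoding share ranged from −7.84 to −3.87 percentage points with 1 larva left out.

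Direction turned for LOC121857831, from −0.54 to 0.0393 with the noncoding share as a covariate and 0.0411 without WAF replicate 6 in addition, a covariate that mostly measures this gene. It turned for LOC121869696, from −1.16 to 0.5576 in the larvae below a 20% share.

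Replicate numbers are shared by the groups, and no source says what a number marks. Deviations of same-numbered larvae correlated above 0.2 for numbers 1, 2, 3 and 6 and below 0 for numbers 4 and 5 (−0.21 to 0.46 for genes, −0.24 to 0.63 for ortholog groups). As not every pair was above 0.1, the larvae were not treated as pairs, and whether some share an origin cannot be told. Each larva correlated best with its own number for numbers 1 and 6 only. The replicate block gave 601 genes and 258 ortholog groups, and of the features followed through the alternatives 7 gained a call, LOC121856941 among them (adjusted p = 0.0159), 1 lost it and 76 did neither.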
